A study of Rattus norvegicus with 8 samples.

Results

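Laminin chains and nidogens were described gene by gene in outflow veins of rat arteriovenous fistulas (AVFs). The 9 genes were chosen by their symbols (Lama2, Lama3, Lama4, Lama5, Lamb1, Lamb2, Lamc1, Nid1 and Nid2) and matched to the gene names of the count data, which found 8 of them among 32623 genes. Expression of Lama3 was not analysed here. All 8 genes passed the minimum base mean of 100 normalized counts, as did 11682 genes in all, and this filter looks at the mean over all libraries, not at a group.

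Every animal was a Sprague Dawley rat in which the epigastric vein had been joined to the femoral artery, and every vein was wrapped at the juxta-anastomotic zone with a nanofiber scaffold and collected at day 21. The BAPN group (4 rats, 3 females and 1 male) received scaffolds loaded with β-aminopropionitrile (BAPN), an inhibitor of the lysyl oxidases (LOX) that crosslink collagen and elastin. The Vehicle group (4 rats, 2 females and 2 males) received the scaffold without the drug. No vein without a fistula or without a scaffold was among the 8 samples, and the rats' ages were not given in the sources used here. Total RNA of the whole outflow vein was depleted of ribosomal RNA and sequenced, and reads were counted per gene.

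Basement membranes are thin sheets of matrix that underlie the endothelium and surround each smooth muscle cell of a vein. Laminins are their cell-binding component: each laminin is a trimer of an α, a β and a γ chain, named by the numbers of its chains, and the α chain carries most of the sites for integrins and dystroglycan. In blood vessels, laminin-411 and laminin-511 are typical of the endothelium, the α2 chain and the β2 chain are typical of muscle, and the nidogens tie the laminin network to collagen IV through the γ1 chain.

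All 8 genes had a lower fitted level in BAPN than in Vehicle veins, and 2 of them, Lamb2 and Lama2, passed the test. Lamb2, the β2 chain, was 2.29-fold higher in Vehicle than in BAPN by mean level, and Lama2, the α2 chain, was 1.90-fold higher. Lamb1, which encodes the alternative β1 chain, changed least, with a log2 fold change of −0.19. The number of Lamb1 reads per Lamb2 read was 2.07-fold higher in BAPN veins. Its exact two-sided permutation p was 0.0286, the smallest possible, and it did not pass after Benjamini-Hochberg adjustment over 6 ratios (0.171). The 2 of 8 genes called, both lower, stand beside 16.8% of all tested genes called in either direction and 9.25% of all tested genes called lower at a false discovery rate (FDR) below 0.05 (edgeR quasi-likelihood test, Benjamini-Hochberg adjustment over all tested genes), and no member was called higher, beside 7.50% of all tested genes. At an unadjusted p below 0.05, 4 were lower and 0 higher, where edgeR gave 18.4% of all tested genes lower and 17.4% higher, and DESeq2 called 3 of 8 lower and 0 higher, where it called 15.1% of all tested genes lower and 12.3% higher. The median log2 fold change was −0.68 over the 8 genes and 0.02 over all tested genes.

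Library depth separated the groups. Reads counted on genes numbered 45039451 to 52241007 per BAPN library and 19548203 to 22442050 per Vehicle library, a gap of 2.01 times between the nearest libraries. Treatment and any technical difference between the library sets cannot be told apart. The 8 genes had 1192 to 36042 reads per library. Values are CPM, the usual depth-normalized read count, scaled by the trimmed mean of M-values (TMM), given as mean ± SD. Gene lengths were not used, so CPM compares groups for a gene, and where a gene is said to have the most reads of a list, this is in CPM and not per length. In a whole vein, fewer cells of a type and less RNA per cell cannot be told apart.

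**Figure D1:**
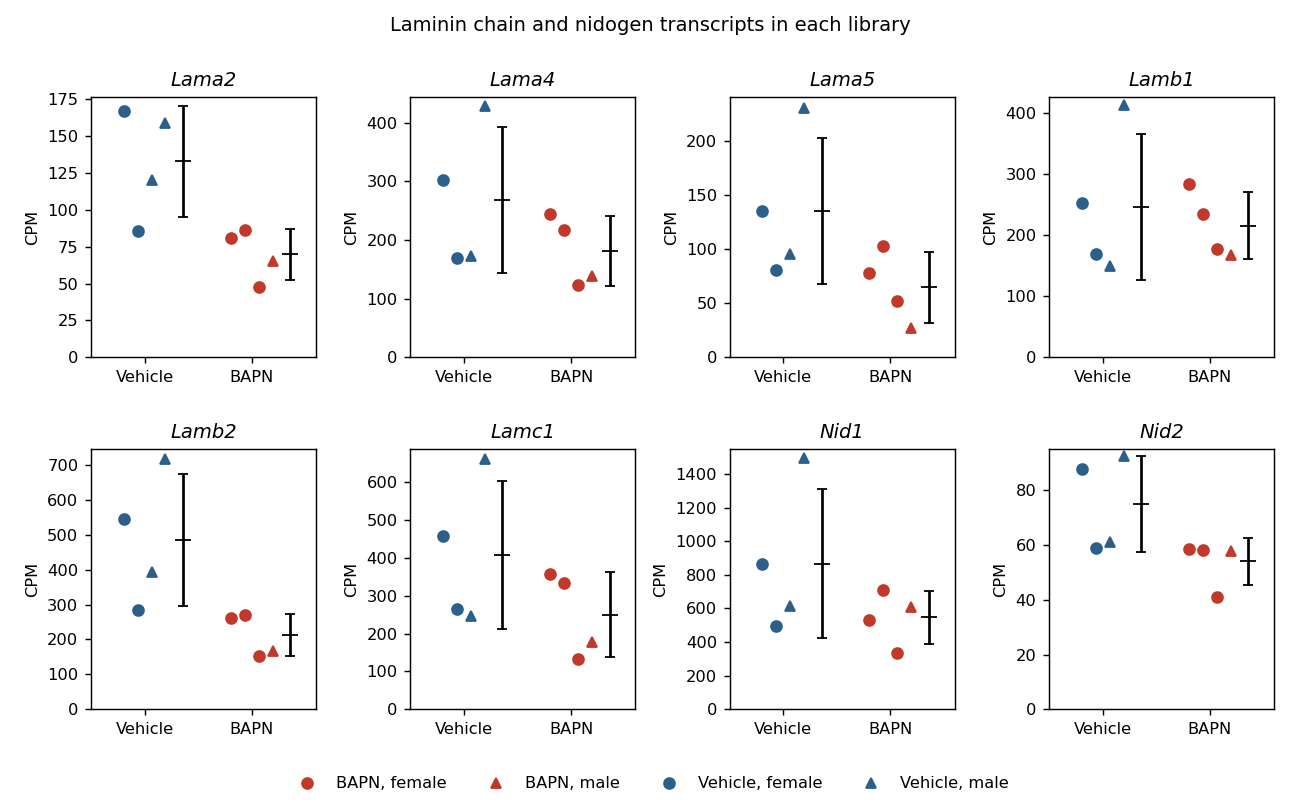
Level of each of the 8 genes in CPM (y axis) in every BAPN and Vehicle library (x axis), with circles for females, triangles for males, and bars for the group mean ± SD (n = 4). Lamb2 and Nid2 show no overlap between the groups, and Vehicle 4 is the highest library in 7 of 8 panels.

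Lama2 encodes the α2 chain (merosin) of muscle and nerve basement membranes. Its level was 80.6, 86.0, 47.5 and 65.4 CPM in BAPN 1 to 4, against 167, 85.8, 120 and 159 CPM in Vehicle 1 to 4. Vehicle 2 lay marginally below BAPN 2, and the other Vehicle libraries lay above every BAPN library, so the groups overlapped. Lama2 fell from 133 ± 37.5 CPM in Vehicle to 69.9 ± 17.3 CPM in BAPN (SD, n = 4 each), a log2 fold change of −0.93 (SE 0.25, FDR 0.0338, edgeR). The exact permutation test of its mean log2 CPM, which goes through all 70 arrangements and can give no p below 0.0286, gave p = 0.0571 (two-sided). The call was kept in 2 of the 8 fits that leave out 1 library. It was lost without BAPN 1 (FDR 0.0509), BAPN 3 (0.0802), BAPN 4 (0.0758), Vehicle 1 (0.0914), Vehicle 3 (0.0561) or Vehicle 4 (0.0693), all by edgeR, with log2 fold changes of −1.09 to −0.78 over the 8 fits.

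Lama4 encodes the α4 chain, the α chain of laminin-411. It was at 245, 217, 123 and 139 CPM in BAPN 1 to 4 and at 303, 169, 173 and 429 CPM in Vehicle 1 to 4. Vehicle 1 and Vehicle 4 were the highest libraries, and Vehicle 2 and Vehicle 3 lay between the pair of lower and the pair of higher BAPN libraries. The means were 181 ± 59.2 CPM in BAPN and 268 ± 124 CPM in Vehicle (SD, n = 4 each). The log2 fold change of −0.57 (SE 0.34, FDR 0.256, edgeR) did not pass the test, and its 95% interval by limma-voom ran from −1.29 to 0.24.

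Lama5 encodes the α5 chain of laminin-511 and laminin-521. Its CPM values were 78.0, 103, 51.9 and 27.0 in BAPN 1 to 4, against 136, 80.3, 95.4 and 231 in Vehicle 1 to 4. BAPN 4 and Vehicle 4, both males, were the lowest and the highest library, and BAPN 2 lay above Vehicle 2 and Vehicle 3. The mean was 64.9 ± 32.7 CPM in BAPN and 135 ± 67.6 CPM in Vehicle (SD, n = 4 each), with a log2 fold change of −1.06 (SE 0.43) and a 95% interval of −2.08 to −0.13 by limma-voom. That difference did not pass the test by edgeR (FDR 0.113) and passed by DESeq2 (FDR 0.0414). None of the 8 edgeR fits that leave out 1 library called it, the smallest FDR being 0.0741 without BAPN 2. The plot of fold changes shows the SE of Lama5, the widest among the 8 genes.

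Lamb1 and Lamb2 encode the β1 and the β2 chain, which take the same place in the trimer. Lamb1 was at 284, 235, 177 and 168 CPM in BAPN 1 to 4 and at 252.3, 169, 150 and 412 CPM in Vehicle 1 to 4. Without Vehicle 4, the remaining Vehicle libraries lay within or below the BAPN range. The means were 216 ± 54.1 CPM in BAPN and 246 ± 120 CPM in Vehicle (SD, n = 4 each), and the log2 fold change of −0.19 (SE 0.32, FDR 0.697, edgeR) had a 95% interval of −0.84 to 0.62 by limma-voom. Its sign turned without Vehicle 4, to 0.18 (FDR 0.635, edgeR), and among females, to 0.14 (FDR 0.768, edgeR).

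Lamb2 was at 262, 269, 153 and 166 CPM in BAPN 1 to 4. In Vehicle 1 to 4 it was at 547, 283.5, 394 and 719 CPM. Every Vehicle library lay above every BAPN library, with Vehicle 2 close to BAPN 2. Lamb2 fell from 486 ± 189 CPM in Vehicle to 212 ± 61.2 CPM in BAPN (SD, n = 4 each), a log2 fold change of −1.19 (SE 0.30, FDR 0.0321, edgeR), the largest change among the 8 genes, and the exact permutation test gave its smallest possible two-sided p, 0.0286. The groups did not overlap for 2 of the 8 genes, Lamb2 and Nid2, both lower in BAPN, where 11.9% of all tested genes were lower without overlap and 12.7% higher. Fits without BAPN 3 (FDR 0.0877), BAPN 4 (0.0764), Vehicle 1 (0.0823) or Vehicle 4 (0.0633), all by edgeR, did not call it. The other 4 fits did, and the log2 fold change was −1.38 to −0.94 over all 8.

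Both calls depended on how sex was handled. With sex as a covariate the log2 fold change was −0.92 for Lama2 (FDR 0.0689) and −1.17 for Lamb2 (FDR 0.0708, both edgeR). Among females, 3 against 2, it was −0.82 for Lama2 (FDR 0.197) and −0.87 for Lamb2 (FDR 0.186, both edgeR), so the direction was kept and the threshold was not passed. Of the members that were not called, Lama5 was at −0.48 among females, Lama4 at −0.27, Lamc1 at −0.40, Nid1 at −0.37 and Nid2 at −0.48 (log2), and the median of the 8 genes was −0.44.

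**Figure D2:**
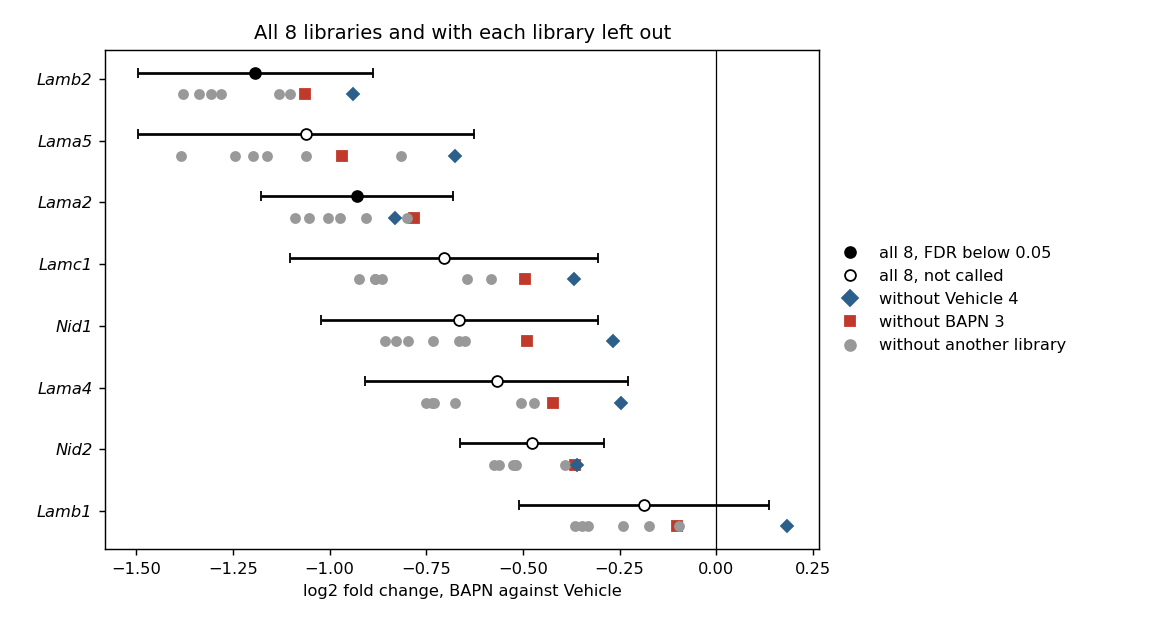
Log2 fold change of BAPN over Vehicle for each of the 8 genes (edgeR), with the SE from limma-voom as bars. Filled points have an FDR below 0.05, and the points under each bar give the value with 1 library left out (diamond without Vehicle 4, square without BAPN 3, grey circles without another library). All 8 values from the full set of libraries lie below 0, and Lamb1 moves to 0.18 without Vehicle 4.

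Promoter sequences are shown for 3 chains, one of each type: Lama2 and Lamb1, an α and a β chain that did and did not pass the test, and Lamc1, the γ chain shared by all the trimers considered here. They are the 250 bases before the transcription start in RefSeq (assembly GRCr8), written 5′ to 3′ along the gene, and capitals mark each match to the GC box GGGCGG on either strand. The Lama2 sequence lies at chr1:19491896-19492145 (plus strand), that of Lamb1 at chr6:53562846-53563095 (plus strand) and that of Lamc1 at chr13:68051987-68052236 (minus strand).
Lama2: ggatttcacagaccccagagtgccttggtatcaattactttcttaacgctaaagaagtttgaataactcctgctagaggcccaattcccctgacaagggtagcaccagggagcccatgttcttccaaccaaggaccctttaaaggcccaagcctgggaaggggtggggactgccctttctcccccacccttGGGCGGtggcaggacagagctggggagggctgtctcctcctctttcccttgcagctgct
Lamb1: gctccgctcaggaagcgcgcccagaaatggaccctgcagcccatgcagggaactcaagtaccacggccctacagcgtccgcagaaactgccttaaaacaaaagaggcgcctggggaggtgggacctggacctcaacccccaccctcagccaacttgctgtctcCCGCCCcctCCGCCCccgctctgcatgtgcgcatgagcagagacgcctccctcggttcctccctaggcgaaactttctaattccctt
Lamc1: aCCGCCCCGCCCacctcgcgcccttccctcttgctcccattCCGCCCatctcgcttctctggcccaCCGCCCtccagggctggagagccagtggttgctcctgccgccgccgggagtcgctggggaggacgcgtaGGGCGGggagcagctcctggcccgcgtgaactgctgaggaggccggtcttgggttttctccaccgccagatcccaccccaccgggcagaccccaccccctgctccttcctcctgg
The GC box was found once in the Lama2 window, 2 times in that of Lamb1 and 5 times in that of Lamc1, where one pair of matches shares a base. RefSeq promoters were matched for 7 of the 9 genes, Lama3 included, and 5 of the 7 held a GC box, beside 30.47% of 33469 promoters. The GC content was 55.6% for Lama2, 62% for Lamb1 and 71.2% for Lamc1. The TEAD motif GGAATG was in 12.06% of all promoters and in those of Lamc1 and Nid1. The SMAD element GTCTAGAC, in 0.1733% of promoters, was in none of the 7 windows, and the TATA motif TATAAA, in 12.93% of promoters, was in that of Lama4. A match of letters is a description of the sequence and no evidence of binding.

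Lamc1 encodes the γ1 chain. Its CPM values were 357, 332, 133 and 179 in BAPN 1 to 4, against 457, 264, 247 and 662 in Vehicle 1 to 4. BAPN 3 and BAPN 4 were below every other library, while BAPN 1 and BAPN 2 lay above Vehicle 2 and Vehicle 3. The mean was 250.1 ± 111 CPM in BAPN and 407 ± 194 CPM in Vehicle (SD, n = 4 each). The log2 fold change of −0.70 (SE 0.40, FDR 0.231, edgeR) did not pass the test, with a 95% interval of −1.61 to 0.18 by limma-voom.

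Nid1 and Nid2 encode the nidogens. Nid1 was at 531, 711, 334 and 612 CPM in BAPN 1 to 4 and at 864, 495, 615 and 1494 CPM in Vehicle 1 to 4. The groups overlapped, and Vehicle 4 was 1.73 times the next Vehicle library. The Nid1 means were 547 ± 160 CPM in BAPN and 867 ± 445 CPM in Vehicle (SD, n = 4 each), with a log2 fold change of −0.66 (SE 0.36, FDR 0.21, edgeR) and a 95% interval of −1.40 to 0.21 by limma-voom.

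Nid2 varied less. It was at 58.6, 58.3, 41.1 and 57.9 CPM in BAPN 1 to 4 and at 87.8, 58.9, 61.1 and 92.5 CPM in Vehicle 1 to 4. The groups did not overlap, but the highest BAPN library and the lowest Vehicle library were 58.6 and 58.9 CPM. The means were 54.0 ± 8.58 and 75.1 ± 17.5 CPM (SD, n = 4 each), and the log2 fold change of −0.48 (SE 0.19, FDR 0.0999, edgeR) did not pass the test over all genes. Its 95% interval by limma-voom ran from −0.88 to −0.04, and the exact permutation test of this single gene gave its smallest possible two-sided p, 0.0286.

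A pair of libraries stood at the ends of most of these ranges. Vehicle 4 was the highest library for 7 of the 8 genes and Vehicle 1 for Lama2. BAPN 3 was the lowest for 6 of them, BAPN 4 for Lama5 and Vehicle 3 for Lamb1. The summed level of the 8 genes was 1896, 2010, 1060 and 1414 CPM in BAPN 1 to 4 and 2812, 1605, 1855 and 4197 CPM in Vehicle 1 to 4, and Vehicle 2 and Vehicle 3 thus lay within the BAPN range. Without Vehicle 4 the median log2 fold change of the 8 genes was −0.36, and without BAPN 3 it was −0.49. Without Vehicle 4 the log2 fold change was −0.25 for Lama4, −0.27 for Nid1, −0.37 for Lamc1 and −0.68 for Lama5.

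The tested α, β and γ chains of the member list can make 6 trimers: laminin-211, 221, 411, 421, 511 and 521. Trimers with the chains under the minimum base mean (Lama1, Lamb3 and Lamc3) were left out. Reads of a pair of chains were compared within each library, since such a ratio does not depend on library size or scaling. The ratios are of reads, not of molecules or proteins, since chain lengths were not used. The number of Lamb1 reads per Lamb2 read, which sets the β1 trimers (laminin-211, 411, 511) against the β2 trimers (laminin-221, 421, 521), was 1.08, 0.873, 1.15 and 1.01 in BAPN 1 to 4, against 0.462, 0.596, 0.380 and 0.574 in Vehicle 1 to 4. Every BAPN library lay above every Vehicle library. The mean log2 ratio was 0.04 ± 0.17 in BAPN and −1.02 ± 0.30 in Vehicle (SD, n = 4 each), a difference of 1.05, with an exact two-sided permutation p of 0.0286, the smallest possible, and 0.171 after Benjamini-Hochberg adjustment over the 6 ratios compared. No adjusted value over 6 such ratios could pass 0.05 unless several ratios reached the smallest p. The difference was 0.92 to 1.14 when 1 library was left out and 0.97 among females.

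The α chain ratios overlapped between the groups. Lama4 reads per Lama5 read, which set laminin-411 and 421 against laminin-511 and 521, were 3.15, 2.11, 2.37 and 5.14 in BAPN 1 to 4, against 2.23, 2.10, 1.81 and 1.86 in Vehicle 1 to 4. BAPN 4 stood highest, and the log2 difference was 0.59 (exact permutation p = 0.0571, adjusted 0.171), falling to 0.33 without BAPN 4 and to 0.21 among females. Lama2 reads per Lama4 read were 0.329 to 0.471 in BAPN and 0.370 to 0.695 in Vehicle, a log2 difference of −0.40 (exact permutation p = 0.114, adjusted 0.229), and −0.26 without Vehicle 3. The log2 differences were 0.19 for Lama2 per Lama5, −0.13 for Nid1 per Nid2 and −0.12 for Lamc1 per Nid1 (exact permutation p = 0.743, 0.686 and 0.657, adjusted 0.743 each), and each of these 3 changed sign in at least 1 fit with fewer libraries.

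**Figure D3:**
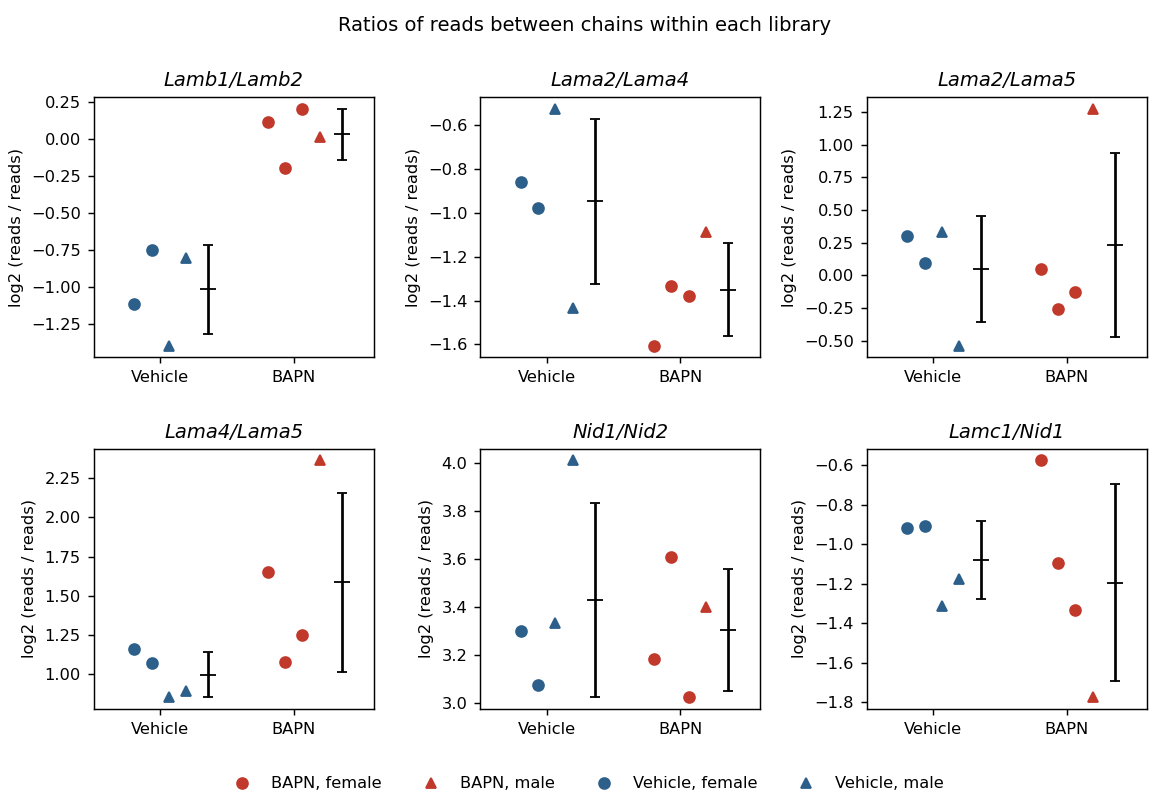
Log2 ratio of reads (y axis) for the 6 pairs of chains or nidogens in every BAPN and Vehicle library (x axis), with circles for females, triangles for males, and bars for the mean ± SD (n = 4). Only the panel of Lamb1 over Lamb2 shows groups without overlap, with means of 0.04 and −1.02.

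Counted by called chains, both variable chains of laminin-221 (Lama2 and Lamb2) were lower in BAPN. Laminin-211, 421 and 521 each had 1 called chain, and the chains of laminin-411 and laminin-511 did not pass by edgeR. By DESeq2, which also called Lama5, both variable chains of laminin-521 and 1 chain of laminin-511 were called. The abundance of the trimers themselves was not measured.

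Of the other laminin chains, Lamc3, the γ3 chain, was under the minimum base mean, at 78.3 normalized counts. It was at 1.08, 1.40, 0.507 and 0.626 CPM in BAPN 1 to 4 and at 3.60, 2.27, 6.99 and 3.30 CPM in Vehicle 1 to 4, without overlap. With edgeR's filterByExpr in place of the minimum, the log2 fold change of Lamc3 was −2.14 (FDR 0.0239), where 6.94% of genes were called lower. Lamb3, at a base mean of 33.9, had a log2 fold change of −0.26 in that fit (FDR 0.787, edgeR), and Lama1, at 3.21, was too low to be read.

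Laminins act through cell surface receptors, and 8 of 9 listed laminin receptors were tested. By edgeR 3 were called lower (all tested genes: 9.25%) and 0 higher, and 5 were lower at an unadjusted p below 0.05 (all tested genes: 18.4%) and 0 higher. DESeq2 called 5 lower (all tested genes: 15.1%) and 0 higher, and the median log2 fold change by edgeR was −0.77. Itgb4, the β4 integrin chain that pairs with α6, was at 61.9, 51.0, 56.4 and 35.8 CPM in BAPN 1 to 4 and at 214, 102, 149 and 161 CPM in Vehicle 1 to 4. The groups did not overlap, and the log2 fold change was −1.61 (SE 0.24, FDR 0.00863, edgeR). Bcam, a receptor for the α5 chain, fell from 171 ± 42.7 to 68.4 ± 20.4 CPM (SD, n = 4 each), with a log2 fold change of −1.32 (SE 0.25, FDR 0.015, edgeR). Dag1, dystroglycan, fell from 342 ± 75.5 to 216 ± 27.7 CPM (SD, n = 4 each), with a log2 fold change of −0.66 (SE 0.17, FDR 0.0352, edgeR). Bcam and Dag1 were also without overlap. Itgb4 and Bcam were called in all 8 fits that leave out 1 library. Dag1 was called only without Vehicle 2 or Vehicle 3, and its FDR reached 0.0907 without BAPN 3 (edgeR). It also lost the call with no filter on low counts (log2 fold change −0.63, FDR 0.0528, edgeR). With sex as a covariate Itgb4 and Bcam passed and Dag1 did not (FDR 0.0721, edgeR). Among females the median of the 8 receptors was −0.51 and none of the 3 passed (FDR 0.0737 for Itgb4, 0.0783 for Bcam and 0.123 for Dag1, edgeR).

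The integrin α chains did not pass by edgeR. Itga7, the muscle laminin receptor chain, had a log2 fold change of −1.02 (FDR 0.0637, edgeR, and 0.0155, DESeq2), without overlap of the groups, and passed by edgeR without BAPN 2 (FDR 0.0499). Itga3 had −0.84 (FDR 0.0848, edgeR, and 0.0356, DESeq2), and Itga6, the partner of Itgb4, had −0.21 (FDR 0.444, edgeR). Itgb1, the β1 chain that pairs with all 3, was at 1118 ± 123 CPM in BAPN and 1000 ± 176 CPM in Vehicle (SD, n = 4 each), a log2 fold change of 0.16 (FDR 0.521, edgeR).

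Of 23 listed basement membrane partners of the laminins 19 were tested, and all 19 had a log2 fold change below 0 (all tested genes: 48.4%). By edgeR 6 were called lower (all tested genes: 9.25%) and 0 higher, by DESeq2 11 lower (all tested genes: 15.1%), and the median by edgeR was −0.93. Col4a4, the α4 chain of collagen IV, fell by 1.76 on the log2 scale (SE 0.25, FDR 0.00806, edgeR), from 37.5 to 11.1 CPM. Col4a1 and Col4a2, the collagen IV chains with the highest CPM, did not pass (log2 fold changes −0.58 and −0.84, FDR 0.259 and 0.167, edgeR). Without Vehicle 4 their FDR was 0.669 and 0.438 (edgeR). Col4a3 (FDR 0.0673) and Col4a5 (0.0605) did not pass by edgeR and passed by DESeq2 (FDR 0.0117 and 0.00775). Npnt, nephronectin, a ligand of integrin α8β1, fell by 1.07 (SE 0.15, FDR 0.00853, edgeR). Ntn4, netrin-4, which binds laminin γ chains, fell from 29.0 ± 14.7 to 10.4 ± 1.43 CPM (SD, n = 4 each), a log2 fold change of −1.47 (SE 0.33, FDR 0.0217, edgeR). The others called were the matrix proteins Fbln1 (−1.09, FDR 0.0194), Egflam (−1.17, FDR 0.0273) and Smoc2 (−0.76, FDR 0.0362, all log2 and edgeR). Sparc, at 7939 ± 1662 CPM in BAPN and 10501 ± 5387 CPM in Vehicle (SD, n = 4 each), did not pass (log2 fold change −0.40, FDR 0.441, edgeR), and its log2 fold change was −0.013 without Vehicle 4.

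Col4a4 and Npnt were called in all 8 fits that leave out 1 library. Fbln1 lost its call without BAPN 3 (FDR 0.0557) or Vehicle 1 (0.0583), and Ntn4 without BAPN 3 (0.0614), BAPN 4 (0.0501) or Vehicle 1 (0.0516, all edgeR). Egflam was called only without BAPN 1 or Vehicle 2 (FDR up to 0.0745 without BAPN 3, edgeR), and Smoc2 only without Vehicle 2 (FDR up to 0.0843 without BAPN 3, edgeR). With sex as a covariate Egflam (FDR 0.0723) and Smoc2 (0.0732) did not pass by edgeR. Among females the median log2 fold change of the 19 partners was −0.52, 18 of them were below 0 and 2, Col4a4 and Ntn4, passed, while Npnt (FDR 0.0787) and Fbln1 (0.148) did not, nor did Egflam (log2 fold change −0.61, FDR 0.249) and Smoc2 (−0.41, FDR 0.224, all edgeR).

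Dystroglycan binds the α2 chain through sugars added by a set of glycosylation enzymes, of which 10 of 12 listed were tested. By edgeR 0 were called in either direction, 4 were lower at an unadjusted p below 0.05 (all tested genes: 18.4%), and DESeq2 called 2 lower (all tested genes: 15.1%). The unadjusted count was 1 without BAPN 3, BAPN 4 or Vehicle 3 and 0 among females, where the share of all tested genes was not computed. The edgeR fit without Vehicle 2 called 1 enzyme, Pomt2, an O-mannosyltransferase, where 19.0% of all tested genes were called in either direction. The median log2 fold change was −0.17, with −0.11 without Vehicle 4 and −0.088 among females. Pomgnt1, the enzyme of this list with the highest CPM, had a log2 fold change of 0.11 (FDR 0.459, edgeR).

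**Figure D4:**
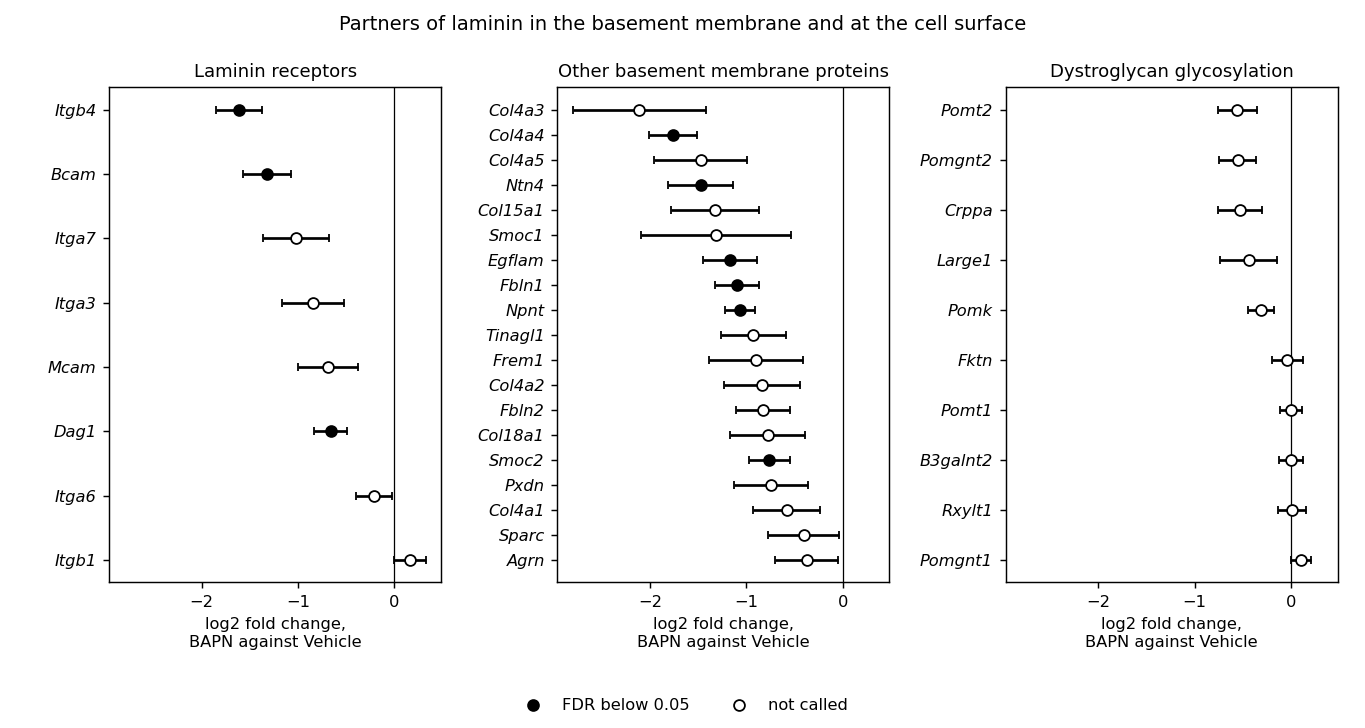
Log2 fold change of BAPN over Vehicle (x axis, edgeR) of the tested laminin receptors, other basement membrane proteins and dystroglycan glycosylation enzymes (a panel each), with the SE from limma-voom as bars and filled points for an FDR below 0.05. Itgb4, Bcam and Dag1 of the receptors and 6 basement membrane proteins are filled, no enzyme is, and Itgb1 is the receptor above 0.

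Markers of smooth muscle and endothelial cells were compared as well. Of 8 smooth muscle markers 5 were called lower by edgeR (all tested genes: 9.25%; median log2 fold change −1.12), and their summed level was 1709 to 4452 CPM in BAPN and 3351 to 6322 CPM in Vehicle, with Tagln the highest in CPM (978 ± 514 and 1521 ± 454 CPM, SD, n = 4 each). Of 7 tested endothelial markers 2 were called lower (median −0.75), with sums of 466 to 623 CPM in BAPN and 759 to 1515 CPM in Vehicle, which did not overlap. Tie1 was the highest in CPM over all 8 libraries (202 ± 43.5 and 251.7 ± 19.2 CPM). Vwf had a higher mean in Vehicle (326 ± 302 CPM, SD, n = 4), at 768, 269, 106 and 161 CPM in Vehicle 1 to 4. In Vehicle 3 and Vehicle 4 Vwf lay below Tie1 (231 and 240 CPM), and Vehicle 1 was the library with the sum of 1515 CPM. No marker of either list was at 0 in any library. Their part in the lower levels of Lama2, Lamb2 and the other members was not tested.

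Other marker lists were examined too, and over all tested genes the shares to read their counts against were 9.25% lower and 7.50% higher by edgeR, 15.1% and 12.3% by DESeq2, and 18.4% and 17.4% at an unadjusted p below 0.05. Of 6 fibroblast markers 0 were called by edgeR (2 lower at an unadjusted p below 0.05 and 2 lower by DESeq2), with sums of 3344 to 4771 CPM in BAPN and 3530 to 6661 CPM in Vehicle. All 7 macrophage markers had a log2 fold change above 0, and 0 were called by edgeR (2 higher at an unadjusted p below 0.05 and 2 higher by DESeq2), with sums of 27503 to 41145 CPM in BAPN and 5659 to 22538 CPM in Vehicle, which did not overlap and were set mostly by Lyz2 (31549 ± 6195 and 12958 ± 6647 CPM, SD, n = 4 each). Of 6 T cell markers 2 were called higher by edgeR (4 at an unadjusted p below 0.05 and 3 by DESeq2). The unadjusted count was 2 to 5 with 1 library left out, 2 with sex as a covariate and 5 among females, where shares of all tested genes were not computed. The T cell marker sums of 343 to 441 CPM in BAPN and 287 to 492 CPM in Vehicle were set mostly by Cd4 (log2 fold change −0.07), while the other 5 had log2 fold changes of 1.02 to 1.41. Adipocyte sums were 1067 to 2928 CPM in BAPN and 443 to 1706 CPM in Vehicle and were set mostly by Fabp4 (1690 ± 851 and 1040 ± 478 CPM, SD, n = 4 each). The other 4 tested adipocyte markers had log2 fold changes of −2.13 to −1.29, with 1 called lower by edgeR, 4 by DESeq2 and 4 at an unadjusted p below 0.05. Schwann cells are the glia of peripheral nerves and also make the α2 chain, and their marker sums were 38.3 to 255.4 CPM in BAPN and 40.2 to 88.5 CPM in Vehicle (0 of 5 called by edgeR and by DESeq2, 1 higher at an unadjusted p below 0.05 by edgeR). Skeletal muscle sums were 16.3 to 30.2 CPM in BAPN and 17.5 to 72.1 CPM in Vehicle, with 3 of the 6 markers, Ckm, Mylpf and Tnnc2, at 0 in at least 1 library. Of the 2 skeletal muscle markers tested 0 were called by edgeR, 1 was lower by DESeq2 and 1 at an unadjusted p below 0.05. Epithelial sums were 4.20 to 45.4 CPM in BAPN and 4.97 to 8.50 CPM in Vehicle, with Epcam, Krt5, Krt14 and Krt15 at 0 in at least 1 library. Of the 2 epithelial markers tested 0 were called by edgeR or by DESeq2, and 1 was higher at an unadjusted p below 0.05 by edgeR. The part of all these cell types in the results was not tested.

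The genes most like each member were taken by the correlation of log2 CPM over the 8 libraries after the group mean was subtracted, so that the treatment difference itself does not enter. These are descriptions over 8 libraries that differ in cell marker levels within a group, and the highest of 11682 values is high by selection. For Lama4 they were Pxdn, Map4k4 and Mgat2 (r = 0.995, 0.992 and 0.988), for Lamc1 Foxn3, Yap1 and Pdxdc1 (0.998, 0.990 and 0.988) and for Lamb1 Mgat3, Itpr3 and Erg (0.988, 0.983 and 0.978). Pxdn encodes peroxidasin, the enzyme that crosslinks collagen IV, and Erg an endothelial transcription factor. For Lamb2 they were Mxra7, Ahdc1 and Fbln2 (0.994, 0.993 and 0.991), for Lama2 Pcdhgb8, Jcad and Chrdl1 (0.981, 0.975 and 0.972) and for Lama5 Baz1a, Als2cl and Cep170b (0.994, 0.989 and 0.985). Nid1 varied most like Myh10, Arcn1 and Plxdc2 (0.993, 0.984 and 0.983) and Nid2 like Lrba, Ints3 and Ncam1 (0.995, 0.989 and 0.989). Among the members themselves Lama4 and Lamc1 were the closest pair (0.981), and Lama5 and Nid2 the most distant (0.530).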

How the data were processed

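RNA of outflow veins from 8 rats, 4 per group, was analysed, and each rat's group, replicate number and sex came from the sample labels. The authors deposited raw counts of reads per rat Ensembl gene, without normalization, from stranded total RNA libraries depleted of ribosomal RNA. The submitters' processing notes name bcl2fastq 2.17, Trim Galore and STAR. The counter, its strand setting, the genome build and the annotation were not given in the sources used here, so the counted genes are given no coordinates (those of the promoter windows are RefSeq's, on GRCr8), and reads shared with overlapping or near-identical genes could not be assessed.

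Genes with a DESeq2 base mean (mean normalized count) of at least 100, the minimum in the study's methods, were fitted with edgeR 4.0.16 (TMM scaling and the quasi-likelihood test, with no covariate; R 4.3.3), and a gene was called at a Benjamini-Hochberg FDR below 0.05 over all tested genes. Standard errors and 95% intervals came from limma 3.58.1 (voom), CPM values were TMM-scaled, and log2 CPM used a prior count of 2. DESeq2 1.42.0 was an alternative. Single values were compared by exact two-sided permutation tests over 70 arrangements. Steps were tested on simulated data. Other alternatives were other scaling and filters, sex as a covariate, females only, a replicate block, libraries thinned to the smallest total, and each library left out. Depth was the count on genes per library, and replicates of a group differed by more than counting noise (chi-square per degree of freedom 68.6 to 320.8), so each was 1 sample.

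The members and gene lists were chosen with earlier results of these data known. Named are the members and other laminin chains, every called gene and the one with the highest CPM of the receptor, partner and glycosylation lists, the marker with the highest CPM of main marker lists, and the 3 genes with a symbol most correlated with each member. Itga3, Itga6, Itga7, Col4a1, Col4a2, Col4a3, Col4a5, Pomt2, Vwf and the markers at 0 were named after their values were seen. Some genes of these lists are not reported here.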

Additional observations from a re-analysis of the deposited data

Results flagged for a closer look

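Nid2 in BAPN 3 stood apart from its group. Its level was 41.1 CPM, while the other 3 BAPN libraries lay between 57.9 and 58.6 CPM, and on the log2 scale the gap to the nearest of them was 0.968 of the group's range, above Dixon's 95% critical value for 4 samples. Of 28 groups of 4 values examined 1 was marked in this way, and chance marks about 1 in 20. BAPN 3 was also the lowest library for 5 other members.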

How the results depend on the processing

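The direction of 7 of the 8 members held under every alternative run, the exception being Lamb1 (0.14 among females and −0.36 to 0.18 with 1 library left out). Of the 136 member values 117 kept direction and side of the threshold, 16 lost the call, 1 gained it (Lama5 by DESeq2) and 2 turned. The call was lost in 9 of 17 alternatives for Lama2 and in 7 of 17 for Lamb2, and the other 6 members had no call to lose. By edgeR 2 members were called. With sex as a covariate, among females and with the replicate block 0 were called, beside 7.96%, 0.762% and 4.76% of all tested genes. In those settings 2, 2 and 3 members had an unadjusted p below 0.05 by edgeR, and DESeq2 was not run. With 1 library left out the number called was 0 to 2 (edgeR, 2 to 5 at an unadjusted p below 0.05), the 0 standing without BAPN 3, BAPN 4, Vehicle 1 or Vehicle 4. The share of all tested genes below an unadjusted p of 0.05 was computed only for the fit of all 8 libraries without a covariate. These unadjusted counts therefore have no share to be read against. Over all genes 1957 were called by edgeR, 3202 by DESeq2, 930 with sex as a covariate, 89 among females, and 397 (without Vehicle 1) to 2215 (without Vehicle 2) with 1 library left out. The replicate block called 556 genes and not Bcam (FDR 0.0633), Dag1 (0.0597), Egflam (0.0858) or Smoc2 (0.0820, all edgeR), with Lama2 at −0.92 (FDR 0.0764) and Lamb2 at −1.16 (FDR 0.0878, edgeR). The deviations of same-numbered libraries from their group means were correlated over genes at r of 0.0944, −0.265, 0.269 and −0.140 for numbers 1 to 4. No spread of r for unpaired libraries was computed, so these values cannot settle whether the numbers pair the rats. The cause of the lost calls was not tested.

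The log2 ratio of Lama2 to Lama5 (0.19) was −0.31 among females and −0.16 to 0.35 with 1 library left out, that of Nid1 to Nid2 (−0.13) was 0.085 among females and −0.24 to 0.069, and that of Lamc1 to Nid1 (−0.12) was −0.32 to 0.078. Among females alone (10 arrangements) no permutation p could go below 0.1. Thinning every library to the smallest total count kept both member calls. The planned correction for coding length and the ratio of Lama3 to Lama5 were not run, since neither coding lengths nor Lama3 counts were at hand.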
